A study of Mus musculus with 2 samples.

Results

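Heat shock, DnaJ and chaperonin genes are described here as they were read in the left cerebral cortex of aged mice. A gene was taken when it was an annotated protein-coding gene with reads in either library and its symbol began with Hsp followed by a letter from a to h or a digit, with Dnaja, Dnajb or Dnajc, with Cct followed by a digit from 2 to 8, or was Tcp1. This gave 76 genes of the 18534 annotated genes with reads, 71 of them with reads in both libraries. The animals were B6CASTF1/J, a cross of a laboratory strain with a wild-derived castaneus strain, 18 to 20 months old, with no treatment or altered gene in the labels. Each of the 2 libraries was made from 2 µg of RNA and sequenced as long complementary DNA reads, so that a read can show which exons were joined in a single molecule. The labels number the libraries as biological replicates 1 and 2 of 1 group but give both the same donor entry, and they disagree with themselves on sex. Any p-value below therefore compares these libraries only and covers counting error, not the spread between animals. There is no contrast in the design, and levels are given as a description.

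Molecular chaperones bind proteins that are unfolded or only partly assembled and keep them from clumping. HSP70 proteins hold and release short stretches of a client by splitting ATP, DnaJ proteins (also called HSP40) deliver the client and switch that cycle on through a histidine-proline-aspartate (HPD) motif in their J domain, and HSP110 proteins reset it by exchanging the nucleotide. HSP90 takes over near-native clients such as kinases and steroid receptors, TRiC is a ring-shaped chamber that folds actin and tubulin, and HSP60 with HSP10 form a similar chamber in mitochondria. Neurons rely on several of these proteins at the synapse, where auxilin and cysteine string protein, both DnaJ proteins, serve vesicle recycling and release.

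Replicate 1 held 774629 reads on annotated genes and replicate 2 held 679147, and levels are given as CPM, the count per 1000000 of these reads. Each long read was taken as 1 molecule, so CPM was not divided by length. Whether several reads came from copies of 1 molecule was not examined. The 76 genes held 10428 and 8550 reads, 1.35% and 1.26% of the reads on annotated genes. A gene with 0 reads could reach 3.87 CPM in replicate 1 and 4.42 CPM in replicate 2, the limit that 3 counts allow, and this covers counting error only. Of all mouse reads, 20.6% and 28.7% lay on models with 1 exon, where no junction can be seen, against 10.8% and 11.8% of the reads of protein-coding genes and 5.19% and 5.80% of those of the 76 genes. Cell type markers had summed levels of 1248 ± 138 CPM (SD, n = 2) for 4 of 4 excitatory neuron genes, 809 ± 113 CPM for 3 of 3 astrocyte genes and 1638 ± 150 CPM for 3 of 3 oligodendrocyte genes. Blood markers (3 of 3 with reads) summed to 372 CPM in replicate 1 and 194 CPM in replicate 2, and endothelial markers (2 of 2) to 278 and 184 CPM. Choroid plexus markers summed to 23.2 and 7.36 CPM, with Folr1 at 0 reads in both. The part of such admixed cells in the values below was not tested.

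Stretches of sequence that the results turn on are shown first. Of the 76 genes, 62 had a promoter in the RefSeq table (build GRCm38.p6), and the 250 bases before each start were searched on both strands for the heat shock element, the site of heat shock factors. Only 1 of the 3 HSP90 genes and 7 of the 10 HSP70 genes were among the 62, so the others of these roles were not searched. A pair of facing units was spelled GAANNTTC or TTCNNGAA, and 3 alternating units GAANNTTCNNGAA or TTCNNGAANNTTC, so every match to 3 units also holds matches to the pair. The 3-unit letters stood before 3 of the 62 genes (4.84%), Hspd1, Hspe1 and Dnajb6, against 139 of the 27025 genes in the table (0.514%). The pair stood before 16 of the 62 (25.8%) against 14.5% of all genes. Hspd1 and Hspe1, which encode HSP60 and HSP10, lie head to head and share their match at chr1:55088053-55088082, 71 bases before the RefSeq start of Hspe1 and 126 bases before a RefSeq start of Hspd1. The match of Dnajb6 is at chr5:29735844-29735872. Hsph1 (chr5:149636351-149636380), Dnaja1 (chr4:40722333-40722362) and the paired genes Hspa1a (chr17:34972242-34972271) and Hspa1b (chr17:34959324-34959353) are printed as examples of genes that hold only the shorter pair. The others with only the pair were Dnaja4, Hspb1, Cct5, Cct2, Dnajc27, Dnajc10, Dnajb4, Hspb6 and Hspb3. Capitals mark the matched letters, each stretch reads 5′ to 3′ on the strand of its gene, and a match is a description of letters only.
Hspe1: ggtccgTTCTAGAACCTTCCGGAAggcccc
Dnajb6: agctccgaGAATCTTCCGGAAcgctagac
Hsph1: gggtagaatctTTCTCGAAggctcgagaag
Dnaja1: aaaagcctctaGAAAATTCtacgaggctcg
Hspa1a: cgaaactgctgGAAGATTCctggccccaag
Hspa1b: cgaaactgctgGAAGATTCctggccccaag

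The 3 HSP90 genes kept 1 order in both libraries. Hsp90ab1, the constitutive cytosolic HSP90, was read at 1749 CPM in replicate 1 and 1580 CPM in replicate 2, 99.8% of the way up the protein-coding genes with reads. Hsp90aa1, the stress-inducible cytosolic form, stood at 640 and 562 CPM. The level of Hsp90ab1 was 2.77 ± 0.0545 times (SD, n = 2) that of Hsp90aa1. Hsp90b1, the form of the endoplasmic reticulum (ER), stood at 279 and 247 CPM. The 3 genes summed to 2529 ± 197 CPM.

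Hspa8, the constitutive HSP70 known as HSC70, was the most read of all 76 genes with 2310 and 1808 reads, or 2982 and 2662 CPM. It held 71.1% of the HSP70 level, which summed to 3966 ± 172 CPM over 10 genes. Hspa5, the ER form known as BiP, followed at 594 and 636 CPM, and Hspa9, the mitochondrial form mortalin, at 201 and 177 CPM. Hspa2, best known from the testis, was read at 129 and 158 CPM. Of its reads, 95 and 106 came from the single-exon transcript Hspa2-202 and 5 and 1 from Hspa2-201, which has 2 exons.
The heat-inducible genes were far below. Hspa1b had 34.9 and 38.3 CPM and Hspa1a had 38.7 and 23.6 CPM, from 27 and 26 and from 30 and 16 reads. Their coding sequences are 99.5% identical over 1926 aligned bases, with an identical run of 638 bases, while the whole transcripts are 86.8% identical. How the authors assigned reads between such copies was not examined, and the split is given as uncertain. Summed, both gave 67.7 ± 8.30 CPM. Among the remaining HSP70 genes, Hspa14, a ribosome-associated form, was read at 43.9 and 63.3 CPM. Hspa12a stood at 36.1 and 47.1 CPM, Hspa13 at 23.2 and 32.4 CPM and Hspa12b at 5.16 and 7.36 CPM. Hspa1l had 0 reads in both libraries.

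HSP110 genes, the nucleotide exchange factors of HSP70, summed to 490 ± 16.7 CPM, of which Hsph1 gave 68.9%. Hsph1 was read at 346 and 330 CPM, Hspa4l at 101 and 98.7 CPM and Hspa4 at 55.5 and 50.1 CPM, and the libraries' ranges of the 3 genes do not overlap. Hspa4 carried 31.2% of its reads on single-exon models, against 0.813% for Hsph1.

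Small heat shock proteins hold unfolding proteins without using ATP. The genes placed here by symbol alone, Hspb followed by a digit, were the lowest group at 75.9 ± 5.10 CPM over 8 genes. Whether each of them, Hspb11 included, encodes such a protein was not examined. Hspb8, which works with BAG3 in autophagy, had 21.9 and 28.0 CPM, Hspb1, known as HSP27, had 20.7 and 22.1 CPM, and Hspb11 had 20.7 and 11.8 CPM. Hspb6 stood at 5.16 and 7.36 CPM. Hspb2 had 2 and 2 reads, Hspb3 had 1 and 2, Hspb9 had 0 and 2 and Hspb7 had 0 and 1, all at or under the limit of 3 counts. Cryab, a small heat shock protein whose symbol lies outside the rule, was read at 119 and 116 CPM, more than the 8 genes together. It lies opposite Hspb2 with overlapping exons.

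The 2 other Hsp symbols were Hspbp1, a nucleotide exchange factor of HSP70, at 138 and 160 CPM, and Hspbap1, which binds Hspb1, at 7.75 and 13.3 CPM.

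Among the chaperonins, Hspd1 was read at 279 and 244 CPM and Hspe1 at 89.1 and 64.8 CPM, a ratio of 3.13 in replicate 1 and 3.77 in replicate 2. The median annotated length of their reads' models was 2423 nt for Hspd1 and 774 nt for Hspe1, and whether the length moves the ratio was not tested.
The 7 TRiC genes summed to 1704 ± 136 CPM. In order, Cct7 had 491 and 459 CPM, Cct5 had 359 and 312 CPM, Cct8 had 253 and 214 CPM and Cct4 had 223 and 212 CPM. Tcp1, the first subunit, followed at 194 and 158 CPM, Cct3 at 159 and 125 CPM and Cct2 at 121 and 128 CPM. The ring holds its subunits in equal number, whereas the read level of Cct7 was 3.81 ± 0.323 times that of Cct2. Over the libraries the ranges of Cct8 and Cct4 overlap, as do those of Tcp1 and Cct3 and of Cct3 and Cct2, while Cct7 and Cct5 each stand apart from all others.
The eighth subunit gene, Cct6a, is listed with the type processed_transcript in the annotation and so falls outside the rule. Its 194 and 144 reads gave 231 ± 27.2 CPM. The testis paralog Cct6b had 0 reads in both libraries.

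**Figure D1:**
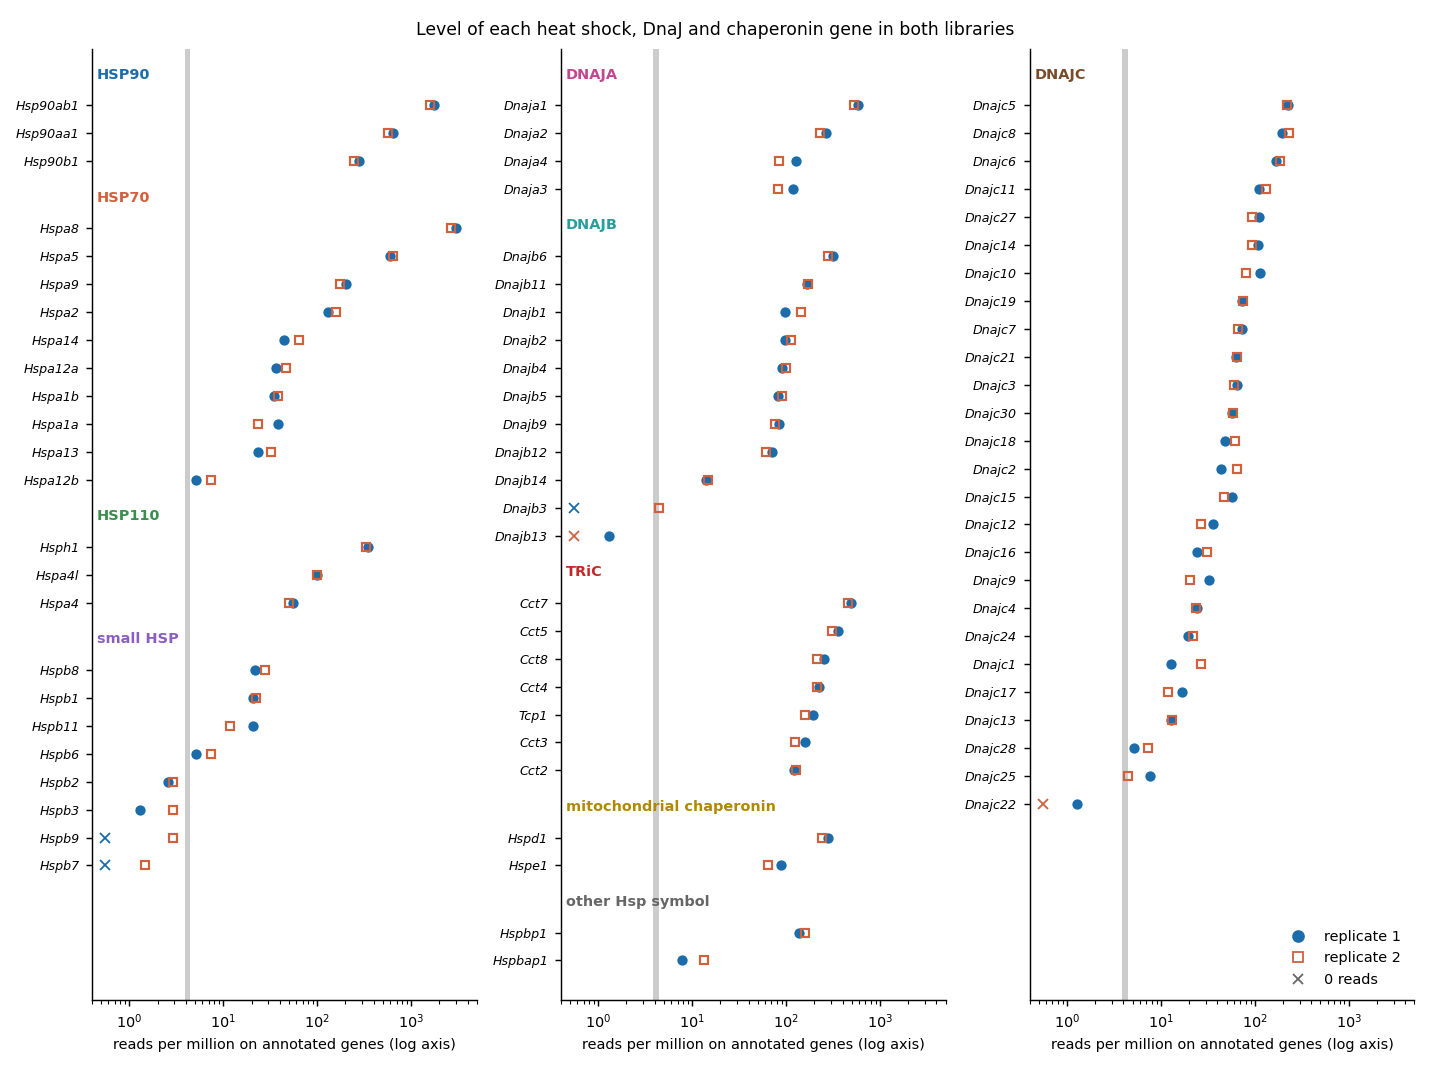
Level of each of the 76 genes in replicate 1 (filled circles) and replicate 2 (open squares), in CPM on a log axis, grouped by role and ordered by mean level. The grey band marks the limit that 3 counts allow, 3.87 to 4.42 CPM, and crosses mark 0 reads. Hspa8 lies highest at 2982 and 2662 CPM, while Hspb2, Hspb3, Hspb7, Hspb9, Dnajb3, Dnajb13 and Dnajc22 lie at or left of the band.

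DnaJ genes were many and moderate. The 41 genes together reached 3762 ± 78.6 CPM, beside 3966 ± 172 CPM for the 10 HSP70 genes. The 4 DNAJA genes summed to 1011 ± 124 CPM. Dnaja1, a main cytosolic partner of HSC70, stood at 586 and 529 CPM, Dnaja2 at 266 and 228 CPM, Dnaja4 at 127 and 83.9 CPM and the mitochondrial Dnaja3 at 120 and 82.5 CPM. All 4 were lower in replicate 2, and none passed the test described below.
The 11 DNAJB genes summed to 1040 ± 26.5 CPM. Dnajb6, an inhibitor of polyglutamine aggregation, led at 315 and 281 CPM. Dnajb11, an ER partner of BiP, had 167 and 172 CPM, and Dnajb1, the classic heat-inducible HSP40, had 98.1 and 144 CPM. Dnajb2, enriched in neurons, had 98.1 and 112 CPM, Dnajb4 had 90.4 and 100.1 CPM and Dnajb5 had 81.3 and 91.3 CPM. The other 5 DNAJB genes had means from 0.645 to 80.9 CPM. Dnajb3 had 0 and 3 reads and Dnajb13 had 1 and 0.
The 26 DNAJC genes summed to 1711 ± 18.8 CPM with no single leader, since the highest held 13.1%. Dnajc5, the cysteine string protein of synaptic vesicles, stood at 226 and 222 CPM. Dnajc8, a spliceosome-associated protein, had 194 and 231 CPM, and Dnajc6, the neuronal auxilin that uncoats clathrin vesicles, had 167 and 184 CPM. Dnajc11, of the mitochondrial membrane, had 111 and 133 CPM, Dnajc27 had 110 and 94.2 CPM and Dnajc14 had 107 and 92.8 CPM. The remaining 20 had means from 0.645 to 96.6 CPM, and Dnajc22 had 1 and 0 reads.

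Across roles the reads were concentrated in few genes. Hspa8 and Hsp90ab1 held 34.5% of the reads of the 76 genes and the 10 most read held 61.2%. Of the 76, 11 stood in the top 5% of protein-coding genes by level (Hsp90ab1, Hsp90aa1, Hsp90b1, Hspa8, Hspa5, Hsph1, Hspd1, Dnaja1, Dnajb6, Cct7 and Cct5), and 18 stood in the lower 50%. Counting the protein-coding genes whose symbols fit the rule, 8 more had 0 reads in both libraries: Hspa1l, Cct6b, Cct8l1, Dnajb7, Dnajb8, Dnajc5b, Dnajc5g and Hspg2.

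Between the libraries, 63 of the 76 genes had the 20 reads in total needed for an exact binomial test of both counts against the library totals, adjusted over all 9143 genes tested by the Benjamini-Hochberg method. The test compares these libraries as sequenced and covers counting error only. Of all genes tested, 1.99% were called at an adjusted p under 0.05, and 0.733% were called and lower in replicate 2. Of the 63, 1 was called, a share of the same order as that background. It was Hspa8, lower in replicate 2 by a log2 ratio of -0.16 (counting SE 0.045, exact binomial test, adjusted p = 0.0231). Counted on annotated transcripts alone, the log2 ratio was -0.13 with an exact adjusted p of 0.218, and on multi-exon models alone -0.15 with 0.0869, so the call was lost at a ratio of similar size. Both settings also change the library totals and the genes tested. Before adjustment 5 of the 63 (7.94%) had p under 0.05, against 11.8% of all genes tested. These were Hspa8, Hsp90ab1, Dnaja3, Dnaja4 and Dnajb1, the last higher in replicate 2 with 76 and 98 reads.
Of the 63, 36 (57.1%) were lower and 27 higher in replicate 2, where 4321 of all 9143 genes tested (47.3%) were lower. The median log2 ratio was -0.07 against 0.03 over all genes tested. The 3 HSP90 genes, the 3 HSP110 genes, Hspd1 with Hspe1 and the 4 DNAJA genes were all lower in replicate 2. So were 6 of the 7 TRiC genes, whereas DNAJC split into 11 and 11. None of these genes was called. The HSP110 ratios were -0.07 for Hsph1, -0.03 for Hspa4l and -0.15 for Hspa4. Each was smaller than its counting SE (0.13, 0.24 and 0.32). Genes of a role are not replicates, and their agreement in sign was not tested. More genes were higher than lower in HSP70 (6 and 3), DNAJB (6 and 3) and the small heat shock proteins (2 and 1), and Hspbp1 was higher. Cell type markers also differed between the libraries. Summed levels were lower in replicate 2 for blood and endothelium, as given above, for excitatory neurons (1345 and 1150 CPM), inhibitory neurons (497 and 411 CPM) and oligodendrocytes (1744 and 1531 CPM), and higher for astrocytes (729 and 889 CPM). Hba-a1 of blood, Cldn5 of endothelium and Mbp of oligodendrocytes were called by the exact binomial test. Their part in these signs was not tested.

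**Figure D2:**
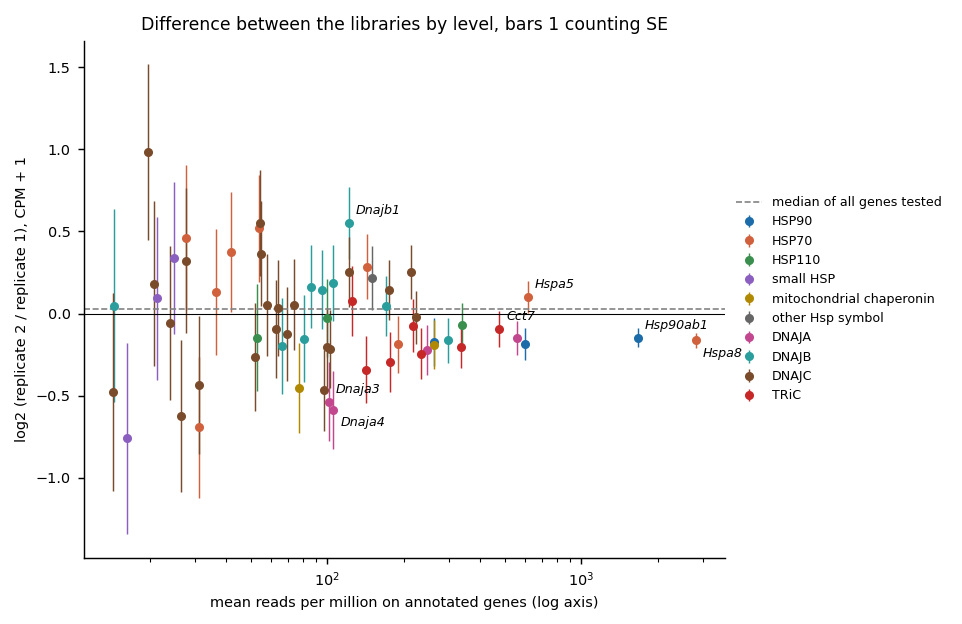
Log2 ratio of replicate 2 over replicate 1 (CPM + 1) against mean CPM on a log axis for the 63 genes tested, coloured by role, with bars of 1 counting SE. The dashed line is the median of all 9143 genes tested, 0.03. The ratios narrow towards 0 as the level rises, and Hspa8 at the right end lies at -0.16.

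The partners of these genes were read from a list of 66, and those named were chosen after their values were seen. Of the list, 65 had reads, 60 could be tested and 0 were called by the exact binomial test, with 28 lower and 32 higher in replicate 2. Over all genes tested, 1.99% were called, and 47.3% were lower in replicate 2, called or not. HSP90 co-chaperones summed to 3618 ± 248 CPM, led by Fkbp8 at 817 and 732 CPM and Nudc at 476 and 433 CPM. Exchange factors and regulators of HSP70 summed to 1536 ± 4.24 CPM, with the ubiquitin ligase Stub1 at 383 and 378 CPM and Bag1 at 356 and 371 CPM, whereas Bag3, the stress-inducible family member, had 14.2 and 11.8 CPM. The ER folding list summed to 1576 ± 40.4 CPM, with the transcription factor Xbp1 at 269 and 293 CPM. Of the heat shock factors, Hsf1, the main activator of the heat shock response, had 78.7 and 88.3 CPM, Hsf4 had 32.3 and 45.6 CPM, Hsf2 had 16.8 and 8.83 CPM and Hsf5 had 0 reads.

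Reads were also sorted by how their splicing matched the annotation: a full match to an annotated chain of introns, an incomplete match that lacks introns at an end, a new combination of annotated splice sites, a new splice site, or genomic, the class for reads within a gene that match none of its transcripts. Full matches made up 83.2% and 82.0% of the reads of the 76 genes, with 95% Wilson intervals of 82.5 to 83.9% and of 81.2 to 82.8%, against 71.1% and 68.2% over all protein-coding genes. HSP70 (93.8% and 91.9%) and TRiC (90.2% and 88.2%) stood high, DNAJC (66.6% and 67.5%) and the mitochondrial chaperonins (62.1% and 63.3%) low. Weighting each gene equally gave 73.2% over both libraries, so the pooled share leans on the genes with most reads. The 2 genes with other Hsp symbols had the lowest shares of the 10 roles, 18.6% and 23.7%.

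**Figure D3:**
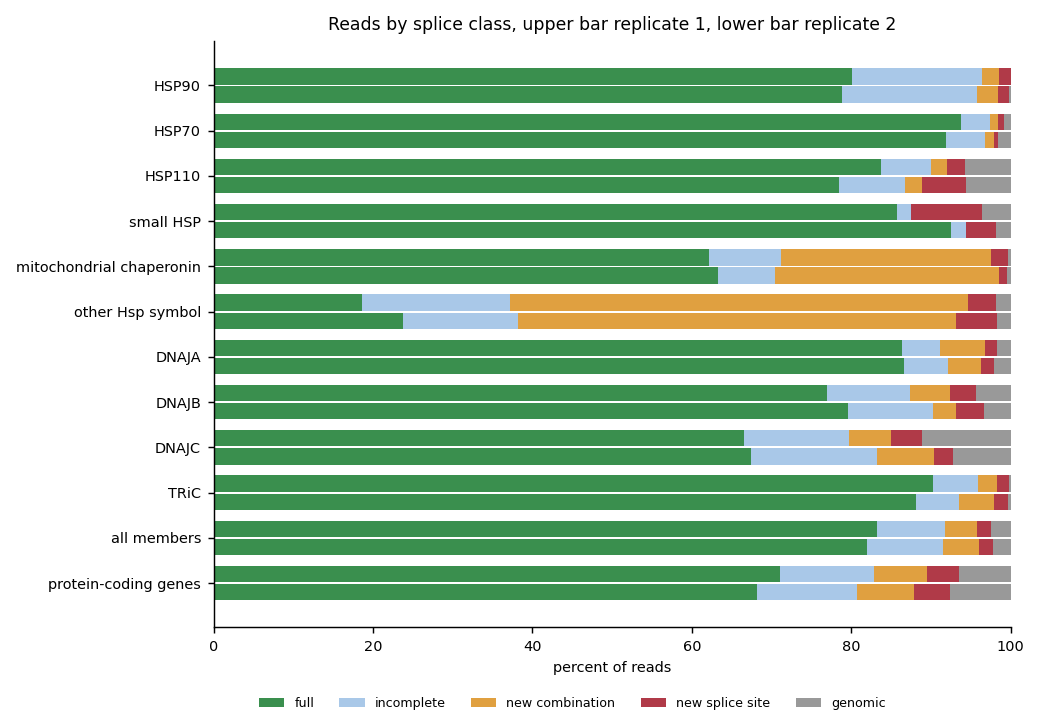
Percent of reads in each splice class by role, with replicate 1 above replicate 2, and all 76 genes and all protein-coding genes at the foot. Full matches take 83.2% and 82.0% of the reads of the 76 genes, and new combinations take 57.5% and 55.1% in the group of other Hsp symbols.

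In 50 genes with at least 50 reads, the transcript with the most reads was annotated in 45 and held a median of 79.3% of the reads, against 66.7% over 5694 protein-coding genes of that depth. It held at least 70% in 31 and at least 90% in 11. As examples chosen after their values were seen, Hspa8-201 held 95.2% and 93.3% of the reads of Hspa8, and Cct7-201 held 93.9% and 92.9% of those of Cct7. The 19 genes below 70%, or with an unannotated leading transcript, follow by the place at which their forms part.

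Forms parted before the coding sequence in Hspa5, Hspd1 and Hspbp1. For Hspa5, Hspa5-201 held 228 and 197 reads and Hspa5-202 held 205 and 213, or 47.6% and 46.9% of all its reads. They differ by an 82-nt intron at chr2:34772147-34772228, upstream of the start codon, and encode the same 655 residues. A read that begins downstream of that intron has the intron chain of Hspa5-202, so its share may include shortened reads of the other form.
For Hspd1, the first intron began at 2 alternative donors, in first exons that overlap. The exon of Hspd1-201 at chr1:55087779-55088024 was joined in 116 and 94 reads (60.4% and 62.3%). The donor further upstream, in the exon annotated at chr1:55087989-55088243 in Hspd1-202, was joined in 73 and 57 reads (38.0% and 37.7%), mostly in a full-length chain absent from the annotation. The shared heat shock element stretch printed above as Hspe1 lies inside this upstream exon as Hspd1-202 annotates it. Both forms reach the same start codon.
Of the 107 and 109 reads of Hspbp1, 84 and 88 were spliced from the shared donor of the first exon. They were split mainly by 3 acceptors, all before the coding sequence. The acceptor at position 4684566 of chromosome 7 took 31 and 44 reads, that at 4684482 took 35 and 22, and that at 4684569, the site of the annotated Hspbp1-201, took 18 and 21. Hspbp1-201 held 18.1% of reads (Wilson interval 13.5 to 23.7%). With annotated transcripts alone the level of the other Hsp symbols was 49.5 CPM in place of 160 CPM.
For Hsp90aa1, Hsp90aa1-202 held 68.8% and 61.0% of reads, and an incomplete match with 1 intron fewer held 43 and 43 reads. An incomplete match lacks introns at an end, so these may be shortened reads of Hsp90aa1-202. However, an 85-nt intron before the coding sequence, at chr12:110695681-110695765, was covered unspliced in 43 and 1 reads and spliced in 16 and 15. Whether these are the same reads was not tested. New combinations with 11 exons held a further 23 and 12 reads and 15 and 14 reads.

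Forms parted within the coding sequence in several DnaJ genes, and the coding bases concerned are shown here because they give each form its end or its J domain. In Dnaja3 the 117-nt exon at chr16:4705844-4705960 was included in 22 of 82 informative reads in replicate 1 (26.8%) and 6 of 52 in replicate 2 (11.5%), 20.9% in all (Wilson interval 14.9 to 28.5%). Inclusion belongs to Dnaja3-201 (480 residues) and skipping to Dnaja3-202 (453 residues). The difference between the libraries had an unadjusted p of 0.0486 and an adjusted p of 1.0 (Fisher's exact test over 1519 exons).
In Dnajb2, Dnajb2-210 reads on past the splice site at position 75243661 of chromosome 1 and encodes 324 residues, while Dnajb2-207 is spliced there and encodes 277. Reads without that splice numbered 23 and 34 and reads with it 35 and 24, so 39.7% and 58.6% were unspliced, 49.1% in all (Wilson interval 40.2 to 58.1%). Any model that covers the intron counts as unspliced here, so this is not the share of Dnajb2-210. That transcript itself held 16 and 21 reads, 24.3% of the reads of the gene, and Dnajb2-207 held 17 and 14. The coding bases of Dnajb2-210 that Dnajb2-207 lacks are at chr1:75243662-75243810.
Dnajb6, added to these after its values were seen, held 73.4% and 71.2% of its reads on the short Dnajb6-203 (242 residues) and 12.3% and 14.7% on the long Dnajb6-201 (365 residues), which carries a nuclear localisation signal. The short form ends in coding bases at chr5:29766396-29766427, and the long form in those at chr5:29785031-29785110. All sequences are from GENCODE M21 transcripts (mm10), on the strand of the gene.
Dnaja3-201 exon: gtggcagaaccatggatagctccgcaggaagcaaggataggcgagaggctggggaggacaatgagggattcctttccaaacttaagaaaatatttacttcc
Dnajb2-210 end: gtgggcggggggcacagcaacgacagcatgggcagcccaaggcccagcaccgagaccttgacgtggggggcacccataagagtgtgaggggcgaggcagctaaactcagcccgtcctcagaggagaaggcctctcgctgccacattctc
Dnajb6-203 end: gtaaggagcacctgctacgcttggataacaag
Dnajb6-201 end: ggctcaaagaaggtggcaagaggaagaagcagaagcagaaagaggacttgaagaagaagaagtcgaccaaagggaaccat

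The exon with the HPD codons was itself skipped in some reads of Dnajb4 and Dnajc24. In Dnajb4 it is the 242-nt exon at chr3:152193377-152193618, which also holds the start codon. Among reads that splice it to the first exon at chr3:152209835-152210083 or pass over it, 15 and 14 included it and 21 and 7 skipped it, an inclusion of 50.9% (Wilson interval 38.3 to 63.4%). Fisher's exact test gave p = 0.10 unadjusted and 1.0 adjusted. This inclusion leaves out reads that start in the exon or use a longer form of it. Of the reads joined to the next exon, 39 of 60 and 55 of 62 came from this exon or its longer form. That is 65.0% and 88.7%, or 77.0% in all (Wilson interval 68.8 to 83.6%). The skipping junction is not annotated. A second annotated form, Dnajb4-202, starts in that exon without the upstream one and held 12 of 70 reads in replicate 1 (17.1%) and 32 of 68 in replicate 2 (47.1%). A read of Dnajb4-204 that begins in that exon has the intron chain of Dnajb4-202, so this share may include shortened reads. Its difference between the libraries had the smallest p for a leading transcript among the 49 genes tested. The adjusted p was 0.0796 by Fisher's exact test over all 5961 genes. None of the 49 passed the threshold, and 0.168% of all genes were called. An unadjusted p under 0.05 was found in 4 of the 49, against 401 of all 5961.
In Dnajc24, which acts in the making of diphthamide, the 139-nt exon at chr2:105980982-105981120 was included in 14 of 15 informative reads in replicate 1 and 11 of 14 in replicate 2, 86.2% in all (Wilson interval 69.4 to 94.5%). Capitals mark the HPD codons in the reading frame of these coding bases.
Dnajb4-204 exon: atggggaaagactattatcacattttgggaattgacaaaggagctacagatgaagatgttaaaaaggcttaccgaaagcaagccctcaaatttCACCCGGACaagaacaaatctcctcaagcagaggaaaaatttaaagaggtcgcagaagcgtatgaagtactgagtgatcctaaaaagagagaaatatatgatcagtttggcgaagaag
Dnajc24-201 exon: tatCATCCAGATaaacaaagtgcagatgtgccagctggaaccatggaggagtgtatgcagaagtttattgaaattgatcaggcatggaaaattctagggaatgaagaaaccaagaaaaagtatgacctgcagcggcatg

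Further cassette exons, internal exons that some reads join past, were found in other genes. Hspa14 included its 83-nt coding exon at chr2:3511015-3511097 in 27 of 33 and 37 of 41 informative reads, 86.5% in all (Wilson interval 76.9 to 92.5%). The skipping junction is not annotated, and the exon length is no multiple of 3. Dnajc15 included a 52-nt coding exon in 94.6% of reads. Dnajc5 included a 75-nt exon in 7.11% and a 53-nt exon in 9.45%.
Dnajc6 included the 65-nt exon at chr4:101531998-101532062 in 22 of 39 and 29 of 44 informative reads, 61.4% in all (Wilson interval 50.7 to 71.2%). A 20-exon chain absent from the annotation led the gene with 21 and 29 reads, ahead of Dnajc6-201 with 15 and 15. The exon is annotated in Dnajc6-204, before its start codon, whereas the start codon of Dnajc6-201 lies upstream of the exon.
The exons of 20 or more informative reads numbered 15 in 10 genes. The rest were a 28-nt exon of Dnajb2 (7.81%), exons of 288, 51 and 208 nt of Dnajb4 (28.2%, 14.7% and 9.38%, the first an extended form of its 242-nt exon), exons of 142 and 145 nt of Dnajb5 that share an end (46.2% and 36.4%) and a 136-nt exon of Hsph1 (9.09%). Of the 15, 8 could be tested between the libraries and 0 were called by Fisher's exact test, where 0.0658% of all exons were called. An unadjusted p under 0.05 was found in 1 of the 8, against 55 of all 1519.

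**Figure D4:**
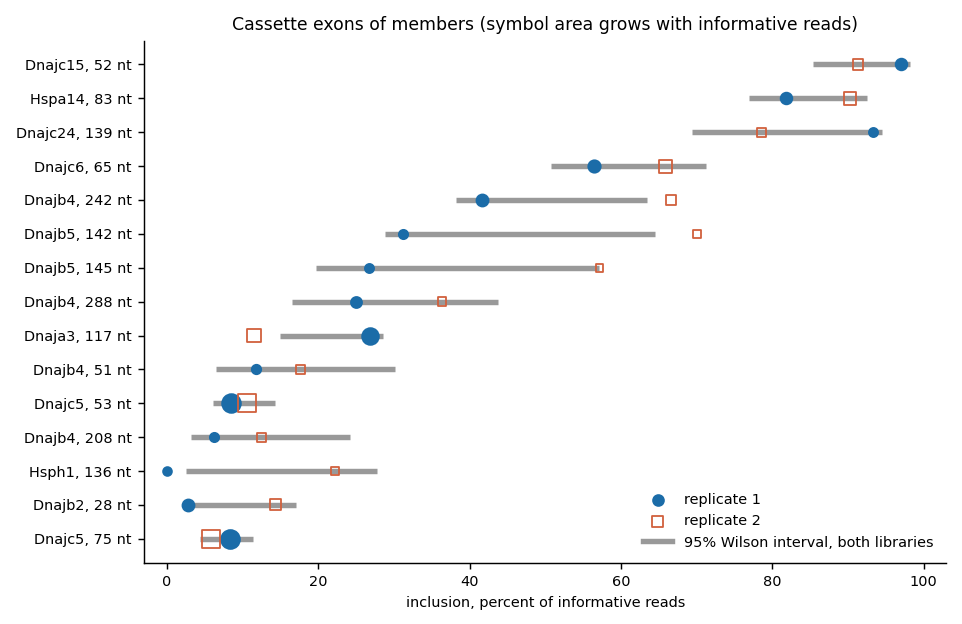
Inclusion of the 15 cassette exons as percent of informative reads in replicate 1 (filled circles) and replicate 2 (open squares), symbol area growing with the number of reads, with the 95% Wilson interval over both libraries in grey. Dnaja3 lies at 26.8% and 11.5%, and the Dnajb4 exon of 242 nt at 41.7% and 66.7%.

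Dnajb12, an ER membrane protein, used 3 donors to 1 acceptor. Dnajb12-205 (378 residues) held 19 and 24 reads, Dnajb12-204 (376 residues) held 14 and 9 and Dnajb12-201 (376 residues) held 10 and 5. Dnajc19, of the mitochondrial import motor, held 66.1% and 62.7% of reads on Dnajc19-202 (116 residues) and 8.93% and 11.8% on Dnajc19-201 (157 residues).
Single-exon unannotated models, pooled per gene, were the second or leading entry in a further set. They held 63.3% of reads in Dnajc18, 56.7% in Hspa12a, 40.8% in Dnajb5, 32.5% in Dnajc5, 31.2% in Hspa4, 25.5% in Dnajc27, 23.7% in Dnajc15 and 22.0% in Dnajc3. Such models show no junction, so the form they come from cannot be read. In Dnajc7, Dnajc7-201 held 67.9% and 66.7% of reads.
Of the 19 genes, 14 had an annotated leading transcript. The rest were Dnajc6 and Hspbp1, with spliced unannotated chains, and Dnajb5, Dnajc18 and Hspa12a, with pooled single-exon models.

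**Figure D5:**
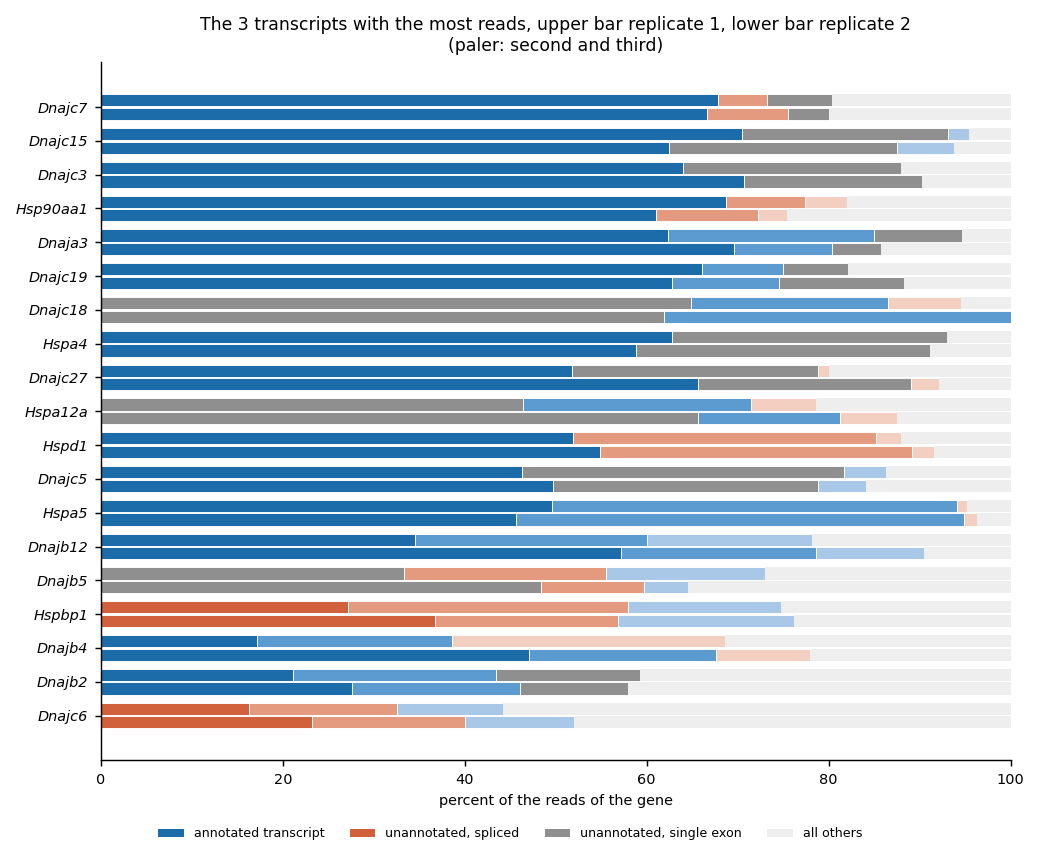
Percent of each gene's reads on its 3 most read transcripts for the 19 genes with at least 50 reads whose leading transcript is unannotated or under 70%, with replicate 1 above replicate 2. Blue is annotated, orange spliced and unannotated, dark grey single-exon and unannotated with such models pooled per gene, pale grey all others. Hspa5 is split between 2 annotated transcripts at 47.6% and 46.9%, and Hspbp1 and Dnajc6 lead with unannotated chains.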

How the data were processed

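Long-read RNA sequencing of 2 libraries was analysed from the deposited tables. Per the deposited notes, the authors' tables derive from alignments to mm10 with the GENCODE M21 annotation, and the deposited annotation names TALON as its source. The aligner is not given in the sources used here. The deposited values are raw counts of reads per transcript model, and the deposited annotation gives the exons of each model. Model lengths of annotated transcripts are those of the annotation, not of the reads. Counts were summed per annotated gene and scaled to the reads on annotated genes (774629 and 679147). Log2 ratios used CPM + 1. Gene counts were compared by an exact binomial test (20 reads in total), transcript shares and cassette exons by Fisher's exact test (20 reads in each library, inclusion of 5 to 95%), with Benjamini-Hochberg adjustment in Python 3.11.15 and scipy 1.17.1, and tested on simulated data. Alternatives used scaling by edgeR 4.0.16 and DESeq2 1.42.0, other read minimums and other model sets. Spike-in reads were left out. Named were all genes of the HSP, chaperonin and TRiC roles, the 6 highest of each DnaJ class, called genes, genes with 0 reads in 1 library, and transcripts and exons as stated beside them. The members, lists and tests were chosen with earlier results of these data known. Splice sites and unspliced introns were counted over all models that show them.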

Additional observations from a re-analysis of the deposited data

Results flagged for a closer look

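Reads on models opposite the strand of the 76 genes entered no comparison above, and they exceeded the limit of 3 counts. There were 226 such reads in replicate 1 and 494 in replicate 2, at 47 of the 76 genes. The number was higher in replicate 2 at 38 genes and higher in replicate 1 at 6. Only 27 of the reads were spliced. Over all mouse reads, models opposite annotated genes held 8.85% in replicate 1 and 16.9% in replicate 2. Dnajc18 had 39 and 52 opposite reads, next to 37 and 42 reads of its own. Dnajb6 had 17 and 41 opposite reads next to 244 and 191, and Hsp90b1 had 18 and 38 next to 216 and 168. The source of these reads was not tested.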

How the results depend on the processing

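No paired analysis was possible because the series has 1 group. Leaving out a library leaves the other library's value, given above, and no test. The summed level of all 76 genes was 13026 CPM. It became 15500 CPM with annotated transcripts only, 14160 CPM with multi-exon models only and 11242 CPM over all mouse reads. In the same 3 settings HSP90 gave 2895, 2895 and 2185 CPM, HSP70 gave 5305, 4262 and 3423 CPM, HSP110 gave 573, 532 and 423 CPM and DNAJB gave 1174, 1094.5 and 895 CPM. DNAJC gave 1654, 1660.1 and 1474 CPM, TRiC gave 2189, 1943 and 1472 CPM and the other Hsp symbols 49.5, 179.9 and 137 CPM. Small heat shock proteins moved to 97.9 CPM with annotated transcripts and 65.3 CPM over all mouse reads, and DNAJA to 1257 and 875 CPM. Mitochondrial chaperonins moved to 381 CPM with multi-exon models and 293 CPM over all mouse reads. These settings change the denominator as well as the reads counted. The number of genes called between the libraries was 1 under edgeR and DESeq2 scaling and under other read minimums, and 0 with annotated transcripts only or multi-exon models only, where the log2 ratio of Hspa8 was -0.13 and -0.15. Over all genes these 2 settings called 55 and 78 in place of 182. Equal weight for each gene gave 73.2% full matches, 5.29% new combinations, 4.18% new splice sites and 8.19% genomic. Without Hspa8 the shares were 79.4% full, 10.4% incomplete, 5.16% new combinations, 2.12% new splice sites and 2.94% genomic. No leading transcript and no cassette exon of the 76 genes was called by Fisher's exact test under the 3 alternatives tried for each. Depth left 7 genes at or under 3 reads in each library, and only 63 of the 76 reached the 20 reads needed for the test between libraries.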
